A study of Homo sapiens with 6 samples.

Results

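The genes described here are 10 noncoding host genes of small nucleolar RNAs (snoRNAs): GAS5 and the small nucleolar RNA host genes SNHG1, SNHG3, SNHG5, SNHG6, SNHG7, SNHG8, SNHG12, SNHG15 and SNHG16. They were taken by gene name from a table of 58735 genes, and each name matched 1 row. The RNA-seq libraries came from cells of the MDA-MB-231 line, a triple-negative breast cancer line labelled as wild type, after staining with PKH26, a membrane dye that is diluted as cells divide. Slow-cycling cells (SCC) were the 1% of cells with the most dye after 12 days without new dye. Rapid-cycling cells (RCC) were sorted from the same kind of stained and chased culture at moderate dye intensity according to the protocol, although the sample characteristics call them low in dye. Each group had 3 libraries from cultures labelled as biological replicates, no other treatment was given to either group, and all results are from this 1 cell line.

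A snoRNA host gene is transcribed and spliced like an mRNA gene. Its introns carry snoRNAs, which are trimmed out after splicing and guide 2′-O-methylation (box C/D snoRNAs) or pseudouridylation (box H/ACA snoRNAs) of ribosomal RNA, while the spliced exons have little coding capacity. Several spliced host RNAs are translated briefly and then destroyed by nonsense-mediated decay, the pathway that removes RNAs with an early stop codon. Many host genes start transcription in a run of pyrimidines, the terminal oligopyrimidine (TOP) start that they share with ribosomal protein genes and that ties translation of the RNA to mTOR signalling. GAS5, growth arrest-specific transcript 5, got its name because its RNA accumulates in cells that have stopped growing.

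The starts of the annotated transcripts are shown because many host genes have a TOP start and the choice of members did not use it. In GENCODE release 29, 40 of the 129 transcripts of the 10 genes (31.0%) had a run of at least 5 C or T bases that began within the first 5 bases. The same was true of 27630 of all 206694 transcripts (13.4%) and of 17540 of the 129061 transcripts of the genes tested (13.6%). At least 1 such transcript was annotated for 8 of the 10 genes, and none for SNHG7 (0 of 4 transcripts) or SNHG15 (0 of 10). The share of all genes with at least 1 such transcript was not computed. A gene with more transcripts has more chances of 1, and the members had from 3 (SNHG3) to 29 (GAS5). The 8 of 10 is therefore not read as a trait of these genes. The annotated start sites of noncoding genes are approximate, and the transcripts of 1 gene share sequence. SNHG6 had 3 of 5 and is not printed or compared here. For the other 7 genes the transcript with the longest such run is printed, bases 1 to 30, with the run in capitals.
GAS5: gTCTTTTCgaggtaggagtcgactcctgtg
SNHG1: TTTTTCTactgctcgtggatttacgcgcac
SNHG3: CCTTTTTggagacagattcgcagtggtcgc
SNHG5: ggTCTTTTacgtcggccttcgcgagcgtct
SNHG8: ggCCTTTCacattcgggaagcgtcgggatt
SNHG12: agcgCCCTTTCTCCCCgccgcattcccggt
SNHG16: TTCTTTTCgaggtcggccgcgtggctggaa
The longest stretch shared by any pair of these starts was the 12 bases TCTTTTCGAGGT, in GAS5 and SNHG16.

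SNHG3 was the only 1 of the 10 genes that passed the test of SCC against RCC over all 6 libraries. Its fitted level fell by 32.2% from RCC to SCC, a log2 fold change of -0.56 (SE 0.066). The other 9 genes did not pass the test, and 8 of those 9 had fitted values below 0. All 10 genes were detected in every library and all 10 passed the filter on low counts. In the edgeR quasi-likelihood test with Benjamini-Hochberg adjustment over all 15881 tested genes, 1 of 10 genes was called lower, against 0.378% of all tested genes, and 0 of 10 higher, against 1.69%. At an unadjusted p under 0.05, 4 of the 10 genes were lower (SNHG3, SNHG12, GAS5 and SNHG5), against 8.27% of the tested genes. For the same 4 genes every SCC library was below every RCC library, which held for 13.4% of tested genes. For no member were all SCC libraries above all RCC libraries, the pattern of 14.4% of tested genes. The median log2 fold change was -0.22 over the 10 genes and 0.00 over all tested genes. Counts per bulk library cannot separate less of an RNA in each cell from fewer cells that carry it.

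Library totals ranged from 17655855 to 27831824 counts, and SCC replicate 1 was the deepest library. That library stood apart: the chi-square of its counts over the degrees of freedom was 24.6 and 18.6 when set against the other SCC libraries, compared with 3.17 to 4.08 in the other pairs within a group. It differed from them along the GC content of the genes. The median log2 ratio of SCC replicate 1 to the mean of SCC replicates 2 and 3 was -0.25 in the tenth of genes with the lowest GC content and 0.42 in the tenth with the highest. SCC replicate 1 was below both other SCC libraries for 9 of the 10 host genes and was the lowest of all 6 libraries for 8 of them. Levels of a gene are given as CPM, the share of counts per library on a fixed scale with library totals scaled by TMM. The summed CPM of 8 markers of the cell line (VIM, CD44, EGFR, AXL, CAV1, SPARC, LGALS1 and KRT18) was 4326 to 4553 in SCC and 4203 to 4366 in RCC. Leukocyte markers summed to 2.20 to 5.56 CPM over 10 genes in SCC and to 1.82 to 2.13 in RCC, fibroblast and endothelial markers to 27.8 to 32.5 and 22.6 to 27.04, and luminal and hormone receptor markers, mostly KRT19 and ERBB2, to 184 to 256 and 177 to 183. The filter kept all 8 line markers, 5 of 8 luminal, 2 of 10 leukocyte and 4 of 10 fibroblast and endothelial markers. None of these tested markers was called, the others could not be, and the part of other cells in the results was not tested.

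**Figure D1:**
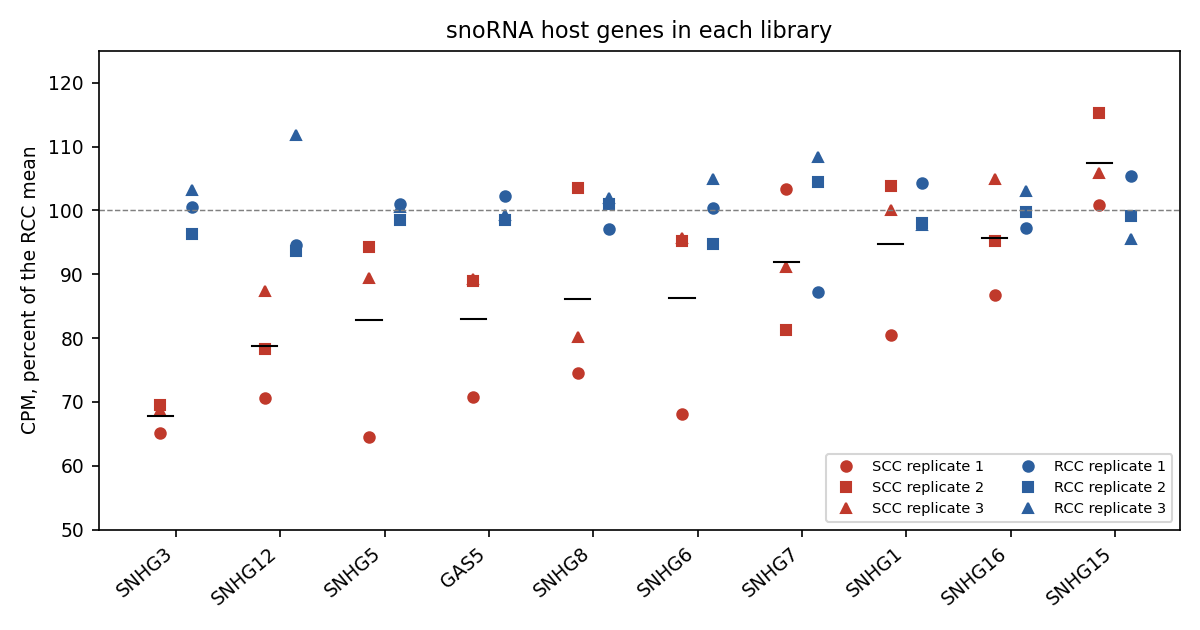
CPM of each host gene in each library as a percentage of that gene's RCC mean (vertical axis), with genes ordered by fitted fold change. Points are libraries, with shape giving the replicate number, and black bars are the SCC means; for SNHG3 all 3 SCC libraries lie close together below all RCC libraries, whereas for SNHG5 and GAS5 the circle of SCC replicate 1 lies well below the other SCC libraries.

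Levels were compared between genes on the FPKM scale, which divides the count by gene length as well as by library size. That length joins all annotated exons of a gene. It covered 95.6% of the span of SNHG1 and 92.8% of SNHG12, but 26.4% of SNHG6 and 15.8% of SNHG5. The order of levels therefore depends on the annotation, and a length of spliced RNA alone was not used. In RCC, SNHG5 had the highest level at 118 ± 0.81 FPKM (SD, n = 3). GAS5 followed at 94.0 ± 1.36, then SNHG6 at 61.5 ± 2.84 and SNHG1 at 57.7 ± 1.87, and the libraries of SNHG6 and SNHG1 overlapped. SNHG3 was at 35.7 ± 1.07 and SNHG8 at 33.0 ± 1.00 without overlap. Lower levels were those of SNHG15 at 18.7 ± 0.87, SNHG16 at 15.3 ± 0.48, SNHG7 at 15.02 ± 1.75 and SNHG12 at 11.2 ± 1.13, with overlap only between SNHG16 and SNHG7. The RCC means of the 10 genes thus ran from 11.2 to 118 FPKM.

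In SCC the order was the same except in 2 places. SNHG1 at 54.4 ± 7.51 FPKM stood before SNHG6 at 52.9 ± 9.97, with overlapping libraries. SNHG8 at 28.3 ± 5.16 stood before SNHG3 at 24.1 ± 1.00, so SNHG3 moved from the fifth to the sixth level of the 10, although its libraries overlapped those of SNHG8. SNHG5 at 97.7 ± 19.4 and GAS5 at 77.7 ± 10.4 also overlapped in SCC. The gene length used for FPKM counts exon bases that lie in other annotated genes as well, 36.4% of those of SNHG6, 33.4% of SNHG16 and 31.4% of SNHG7. Where only unshared bases were counted as length, an alternative chosen after seeing the data, SNHG6 rose to 96.8 ± 4.47 FPKM in RCC and stood next to GAS5 at 95.1 ± 1.37. On that scale SNHG6 was above SNHG1 in both groups, at 83.3 ± 15.7 and 64.3 ± 8.87 FPKM in SCC, so their change of order was lost, whereas SNHG8 still stood before SNHG3 in SCC only. SNHG15 and SNHG7 were then at 19.4 ± 0.91 and 21.9 ± 2.55 FPKM in RCC and at 20.7 ± 1.501 and 20.002 ± 2.30 in SCC.

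Together the 10 genes took 0.144%, 0.138% and 0.144% of all counts in the RCC libraries. In SCC replicates 1 to 3 they took 0.1012% (95% Wilson interval 0.10002 to 0.10238%, counting error only), 0.130% and 0.127%. The 3 SCC shares lay below the 3 RCC shares. The means were 0.120 ± 0.0161% and 0.142 ± 0.00323% (SD, n = 3), a difference of -0.0225 percentage points that became -0.0133 without SCC replicate 1. No test was made of this sum.

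The box H/ACA hosts include the member with the clearest difference. SNHG3 (GRCh38 chr1:28505980-28510892, + strand, ENSG00000242125) carries SNORA73A and SNORA73B, the human U17 snoRNAs, which act in cleavage of the ribosomal RNA precursor rather than in its modification. Its level was 95.3, 102 and 101 CPM in SCC replicates 1 to 3, and 147, 141 and 151 CPM in RCC replicates 1 to 3. The groups did not overlap, and the gap between the highest SCC library and the lowest RCC library was several times the SD within either group. The means were 99.3 ± 3.49 and 147 ± 5.06 CPM (SD, n = 3), and the log2 fold change of -0.56 had an adjusted p of 0.00105 in the edgeR quasi-likelihood test. Among the 60 genes called lower, SNHG3 had the second smallest p. SCC replicate 1 differed little from the other SCC libraries for this gene, with a log2 ratio of -0.09.

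SNHG3 was called lower in all 17 alternative fits, with log2 fold changes of -0.59 to -0.53 and adjusted p values of 1.2e-09 to 0.030. These fits changed the test, scaling, filter, unit or GC correction, added a replicate term, or left out each library in turn, and they called 0.00266% to 2.71% of tested genes lower. In the limma fit on log2(FPKM + 1) without a filter, SNHG3 was the only gene called lower among 37596, or 0.00266%. In the DESeq2 fit it had the smallest p of the 120 genes called lower. It did not lead in every fit: with genes of at least 1 count its p ranked 10 of the 315 called lower. Without SCC replicate 2 the rank was 6 of 261, and without RCC replicate 3 it was 5 of 11.

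The snoRNA rows inside SNHG3 and the gene it shares its start with were measured in the same table. SNORA73B (chr1:28508559-28508762) lies in SNHG3 and shares no exon base with it. Its counts were 106, 101 and 92 in SCC and 210, 159 and 201 in RCC. This gave 3.93, 5.16 and 4.36 CPM against 9.13, 7.60 and 11.2 CPM, so the groups did not overlap. SNORA73B was lower in SCC with a log2 fold change of -1.06 (SE 0.178) and an adjusted p of 0.012 by edgeR. That call was lost without RCC replicate 1 (adjusted p = 0.071), without RCC replicate 3 (0.070) and in the unfiltered limma fit on FPKM (0.161).

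The gene RCC1 (a name unrelated to the RCC group), which encodes the nucleotide exchange factor of the GTPase Ran, starts at the same promoter region as SNHG3, runs on the same strand to chr1:28539300 and shares 242 exon bases with it. The reads of RCC1 and SNHG3 in those bases cannot be told apart. SNORA73B also lies within the span of RCC1. Counts in the SNORA73B row therefore cannot be told apart from unspliced RNA of SNHG3 or RCC1. RCC1 had 142, 137 and 139 CPM in SCC and 149, 157 and 145 CPM in RCC. The groups did not overlap, but the difference was small and did not pass the test, with a log2 fold change of -0.11 (SE 0.064) and an adjusted p of 0.372 by edgeR.

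Ratios of counts within a library do not depend on library scaling. SNHG3 counts were 67.1%, 74.2% and 72.3% of RCC1 counts in SCC, and 99.2%, 89.8% and 104% in RCC. SNORA73B counts were 4.12%, 5.07% and 4.34% of SNHG3 counts in SCC, and 6.20%, 5.38% and 7.44% in RCC. Neither ratio overlapped between the groups: SNHG3 was lower relative to its neighbour, and the SNORA73B row lower relative to that of its host. The part of unspliced RNA in the SNORA73B row was not tested. Each comparison had a two-sided exact permutation p of 0.1, the smallest that 3 against 3 libraries can give, so neither can pass 0.05. The ratio of SNORA73B to RCC1 also gave 0.1, and so did all 3 after Benjamini-Hochberg adjustment. Both ratios to RCC1 were added after the values were known.

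**Figure D2:**
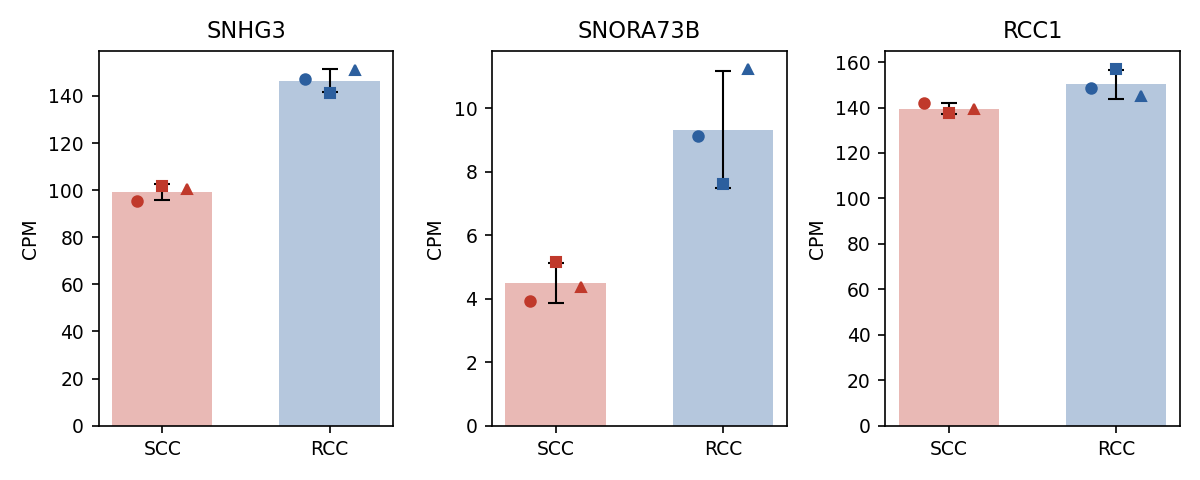
CPM of SNHG3, of the snoRNA SNORA73B within it and of the neighbouring gene RCC1 (one panel each, vertical axes from 0). Bars are group means, error bars the SD over 3 libraries and points single libraries; SNHG3 and SNORA73B are lower in SCC, and the RCC1 means are 139.5 and 150.2 CPM.

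The paired snoRNAs of SNHG3 are near copies, which bears on how reads are assigned to them. In the GENCODE 29 transcripts, SNORA73A (chr1:28507366-28507571, 206 bases) and SNORA73B (204 bases) were identical in 192 of 206 aligned columns (93.2%). Both ended in ACA followed by 3 bases, the box that names the H/ACA class. SNORA73A lies wholly within annotated SNHG3 exon sequence and was listed at 0 in all 6 libraries. They are shown in full, with capitals marking the bases that differ or have no partner in the alignment.
SNORA73A: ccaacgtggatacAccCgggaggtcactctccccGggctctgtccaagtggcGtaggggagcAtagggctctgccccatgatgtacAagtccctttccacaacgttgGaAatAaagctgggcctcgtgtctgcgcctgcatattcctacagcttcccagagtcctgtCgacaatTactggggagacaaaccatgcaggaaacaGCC
SNORA73B: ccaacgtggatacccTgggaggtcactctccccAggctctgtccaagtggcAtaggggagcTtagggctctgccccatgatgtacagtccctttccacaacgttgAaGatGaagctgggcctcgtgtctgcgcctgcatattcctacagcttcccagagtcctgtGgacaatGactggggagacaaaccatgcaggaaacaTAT

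SNHG12 (chr1:28578538-28583132, - strand) lies on the same chromosome arm as SNHG3 and hosts SNORA16A, SNORA44, SNORA61 and the C/D snoRNA SNORD99. It had 33.8, 37.4 and 41.7 CPM in SCC and 45.2, 44.7 and 53.4 CPM in RCC. All SCC libraries were below all RCC libraries, but the distance between the nearest ones was similar to the steps within a group. The log2 fold change of -0.34 (SE 0.103) had an adjusted p of 0.119 by edgeR. With an offset for GC content the value was -0.45 and the adjusted p 0.022, in a fit that called 1.54% of genes lower. SNHG12 was called in 3 of the 17 alternative fits. Another used every gene of at least 1 count (adjusted p = 0.027, where 0.838% of genes were called lower). The last joined the GC offset and a replicate term (adjusted p = 0.00063, where 2.71% were). SNORD99 had 14, 8 and 5 counts in SCC and 23, 12 and 11 in RCC, with a log2 fold change of -0.89 (SE 0.44) that did not pass the test (adjusted p = 0.284).

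The other hosts of annotated H/ACA snoRNAs had overlapping groups. SNHG8 (chr4:118278709-118279823, + strand), host of SNORA24, had 22.8, 31.6 and 24.5 CPM in SCC and 29.6, 30.9 and 31.2 CPM in RCC. Its highest library of all was SCC replicate 2, and its log2 fold change of -0.22 (SE 0.119) had an adjusted p of 0.326 by edgeR. Without SCC replicate 2 the value was -0.38 with an adjusted p of 0.046, in a fit that called 1.59% of genes lower. SNHG7 (chr9:136721366-136728184, - strand), host of SNORA17A and SNORA17B, had 67.6, 53.1 and 59.6 CPM in SCC and 57.03, 68.4 and 70.9 CPM in RCC.

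SNHG7 had the highest GC content of the 10 genes, 65.9% in its longest transcript, and was the only one of them in which SCC replicate 1 was above the other SCC libraries. Its log2 fold change of -0.12 (SE 0.107) did not pass the test (adjusted p = 0.544). With the GC offset it became -0.40 with an adjusted p of 0.0083, in a fit that called 1.54% of genes lower. SNHG7 was called in 2 of the 17 alternative fits. The other joined the GC offset and a replicate term (adjusted p = 0.00021, where 2.71% of genes were called lower). SNHG15 (chr7:44983023-44986961, - strand), host of SNORA9, was the 1 member with a fitted value above 0. It had 68.9, 78.7 and 72.3 CPM in SCC and 71.9, 67.7 and 65.3 CPM in RCC, and a log2 fold change of 0.10 (SE 0.078) with an adjusted p of 0.480. SNHG15 stayed above 0, and uncalled, in all 17 alternative fits.

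**Figure D3:**
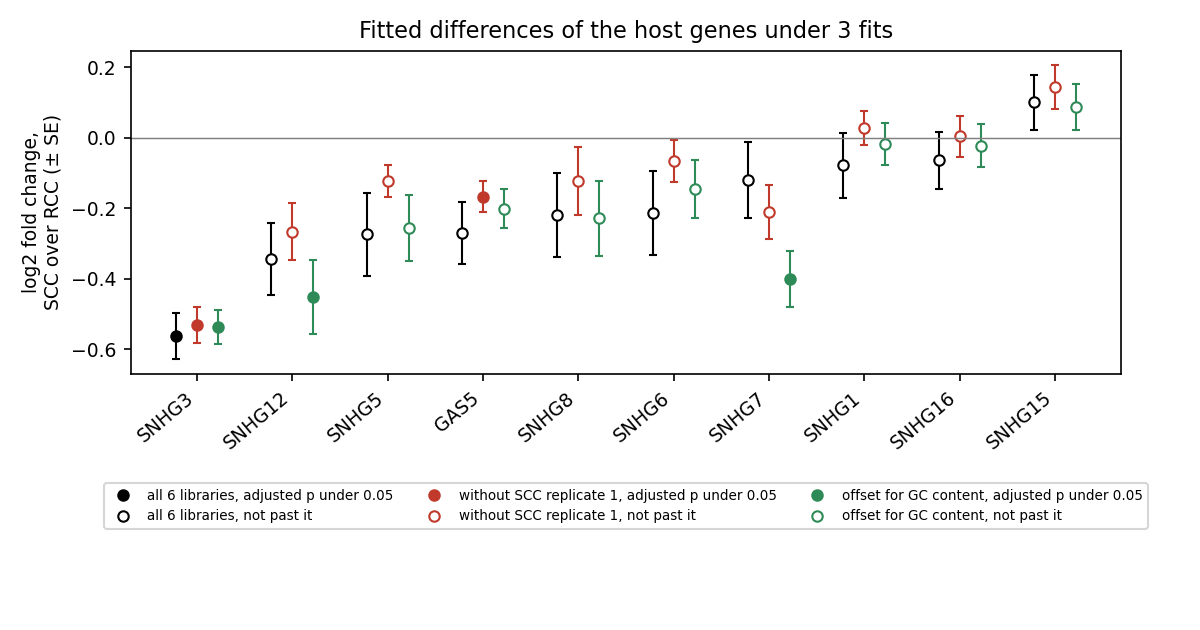
Fitted log2 fold changes of SCC over RCC (± SE) for the 10 host genes with all 6 libraries, without SCC replicate 1, and with an offset for GC content. Filled points have an adjusted p under 0.05; SNHG3 is filled in all 3 fits, GAS5 only without SCC replicate 1, and SNHG7 and SNHG12 only with the offset.

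The remaining members are hosts of box C/D snoRNAs. GAS5 (chr1:173863900-173868882, - strand, ENSG00000234741) is known to host many of them, although none is a row of this table. It had 242, 304 and 305 CPM in SCC and 350, 337 and 340 CPM in RCC. The groups did not overlap, and SCC replicate 1 was far below the other SCC libraries, with a log2 ratio of -0.33. The log2 fold change of -0.27 (SE 0.088) did not pass the test (adjusted p = 0.143). Without SCC replicate 1 the difference was smaller, -0.17 (SE 0.044), and passed it with an adjusted p of 0.022, in a fit that called 2.1% of genes lower. GAS5 was below 0 in all 17 alternative fits (-0.34 to -0.17) and called in 3 of them. The other calls came with every gene of at least 1 count (adjusted p = 0.030, where 0.838% of genes were called lower) and with the GC offset and replicate term together (0.026, where 2.71% were).

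SNHG5 (chr6:85660950-85678748, - strand), host of SNORD50B, had 215, 314 and 298 CPM in SCC and 337, 328 and 335 CPM in RCC. The RCC libraries agreed closely, and SCC replicate 1 was the lowest library by a wide margin. The log2 fold change of -0.27 (SE 0.117) had an adjusted p of 0.233 by edgeR and shrank to -0.12 without SCC replicate 1. SNHG5 was called in 2 of the 17 alternative fits, the same ones with at least 1 count and with the GC offset and replicate term.

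SNHG1 (chr11:62851988-62855914, - strand) carries SNORD22, SNORD25, SNORD26, SNORD27, SNORD28 and SNORD30 among its 7 annotated snoRNA rows. It had 175, 226 and 217 CPM in SCC and 226, 213 and 212 CPM in RCC, so SCC replicate 1 alone was low. Its log2 fold change was -0.08 (SE 0.092, adjusted p = 0.652) and 0.03 without SCC replicate 1. SNHG16 (chr17:76557766-76565348, + strand), host of SNORD1A, SNORD1B and SNORD1C, had 71.5, 78.5 and 86.4 CPM in SCC and 80.1, 82.2 and 84.9 CPM in RCC. The groups overlapped, with a log2 fold change of -0.06 (SE 0.082, adjusted p = 0.678) that was 0.00 without SCC replicate 1. Neither gene was called in any alternative fit.

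SNHG6 (chr8:66921684-66926398, - strand), host of SNORD87, had 52.4, 73.3 and 73.6 CPM in SCC and 77.2, 73.0 and 80.7 CPM in RCC. SCC replicates 2 and 3 lay within the RCC range, and SCC replicate 1 lay well below it. The log2 fold change of -0.21 (SE 0.119) had an adjusted p of 0.335 and was -0.07 without SCC replicate 1. SNHG6 was called in none of the 17 alternative fits.

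**Figure D4:**
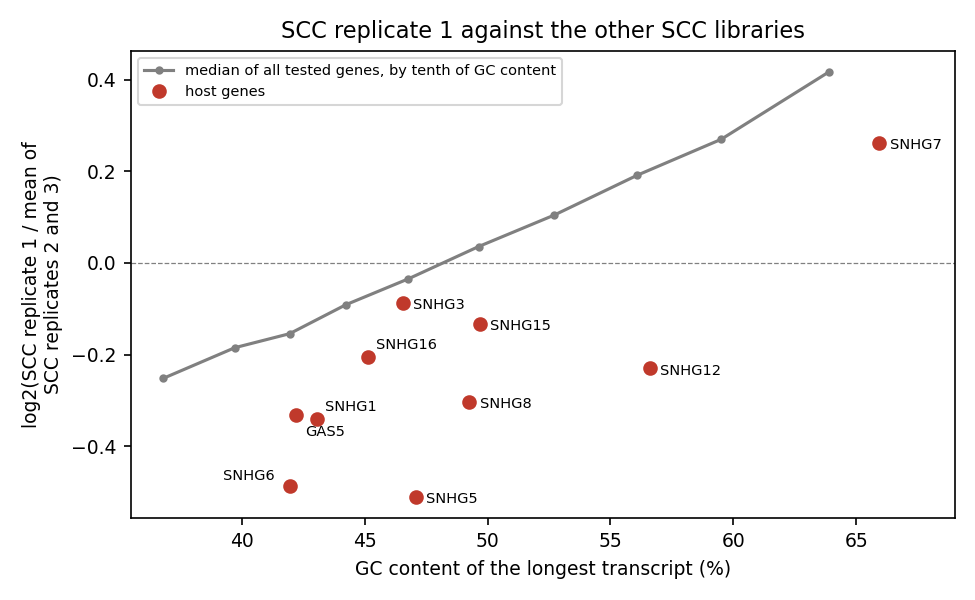
Log2 ratio of SCC replicate 1 to the mean of SCC replicates 2 and 3 (vertical axis) against the GC content of each gene's longest transcript (horizontal axis, %). The grey line joins the medians of all tested genes in 10 bins of GC content, from -0.25 to 0.42, and red points are the 10 host genes, all below that line over the range it covers and 9 of them below 0.

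The host genes differed in GC content. Their longest transcripts had 41.98% GC in SNHG6 and 42.2% in GAS5, up to 56.6% in SNHG12 and 65.9% in SNHG7. The log2 ratio of SCC replicate 1 to the other SCC libraries was -0.49 in SNHG6 and -0.51 in SNHG5, against a median of -0.15 for all tested genes in the tenth of genes around 41.95% GC and -0.03 in the tenth around 46.8%. It was -0.23 in SNHG12, where genes around 56.1% GC had a median of 0.19. The part of GC content in the differences between the groups was not tested beyond the fit with the offset, in which the median of the 10 genes was -0.21. That fit called 3 of the 10 genes lower, and 1.54% of all tested genes, against 0.378% without the offset.

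Reads of these genes are also limited by overlap with other annotated genes. Within 9 of the 10 genes lay 25 rows of annotated snoRNAs on the same strand, and GAS5 had none in this annotation. Of the 25 rows, 22 were listed at 0 in all libraries. The 21 rows that lay wholly inside annotated exons of their host were all at 0, and of the other 4 rows 3 were above 0: SNORA73B, SNORD99 and SNORD1B, which had 5, 6 and 4 counts in each group. In the whole table, 1060 of 1139 rows wholly inside same-strand exons of other genes were at 0, as were 709 of 710 rows inside opposite-strand exons only, against 40.5% of rows that shared no exon base. By default featureCounts leaves a read that overlaps 2 genes unassigned, and the setting used was not given in the sources used here. A 0 for a snoRNA row within host exons is therefore not read here as absence of the RNA. Counts in a snoRNA row outside host exons can include unspliced host RNA.

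GAS5 shares its start region with ZBTB37, a zinc finger gene on the opposite strand (chr1:173868082-173903549) that shares no exon base with it. ZBTB37 had 31.9, 34.97 and 33.2 CPM in SCC and 46.7, 41.1 and 46.3 CPM in RCC. The groups did not overlap, and ZBTB37 was lower in SCC with a log2 fold change of -0.42 (SE 0.085, adjusted p = 0.031 by edgeR). This call was lost in all 3 limma fits on FPKM (adjusted p = 0.153 to 0.397), and without SCC replicate 3 (0.102) or RCC replicate 1 (0.189), 2 (0.069) or 3 (0.158). GAS5-AS1, an antisense gene at the 3′ end of GAS5, had 47, 34 and 40 counts in SCC and 20, 27 and 23 in RCC, with a log2 fold change of 0.65 (adjusted p = 0.233). It shares 42 exon bases with GAS5 on the other strand. The other tested neighbours, FAM69B at SNHG7 and TRNAU1AP at SNHG12, had values of 0.04 and -0.06.

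The genes most like GAS5 over the 6 libraries were found by Pearson's r of log2 CPM among all tested genes, as a description. They were SMC6 (r = 0.998), ZNF197 (0.996), KCTD9 (0.996), SPTLC2 (0.996) and GART (0.995), and none of the 5 was called. Each was lower in SCC replicate 1 than in the mean of the other SCC libraries, by log2 ratios of -0.32 to -0.10. Among the host genes SNHG5 had the highest value (0.975, rank 133 of the tested genes), followed by SNHG6 (0.940), SNHG12 (0.851), SNHG1 (0.844), SNHG3 (0.837), SNHG8 (0.793) and SNHG16 (0.754). SNHG7 (-0.10) and SNHG15 (-0.11) did not follow GAS5. The part of SCC replicate 1 in these values was not tested.

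Other noncoding snoRNA hosts were listed as 21 names, of which 18 were rows and 15 were tested. The tested genes include C6orf48, which is annotated here as protein-coding (log2 fold change 0.24, adjusted p = 0.158 by edgeR). Of the 15, 2 were called lower and 0 higher, against 0.378% and 1.69% of tested genes. In 6 all SCC libraries were below all RCC libraries (13.4% of tested genes), and in 2 all were above (14.4%). At an unadjusted p under 0.05, 5 were lower and 1 higher, against 8.27% and 11.4% of tested genes. The median log2 fold change was -0.25. SNHG4 (chr5:139274102-139284899), host of SNORA74A and SNORA74D, had 49.5, 58.5 and 61.5 CPM in SCC and 83.4, 78.0 and 86.6 CPM in RCC (log2 fold change -0.55, SE 0.091, adjusted p = 0.011 by edgeR). SNHG20 (chr17:77086716-77099902), host of SCARNA16, had 3.12, 3.32 and 3.46 CPM in SCC and 5.30, 5.50 and 6.15 CPM in RCC (-0.77, SE 0.16, adjusted p = 0.034). The difference in SNHG4 was about the size of that in SNHG3. The call of SNHG4 was lost without RCC replicate 1 (adjusted p = 0.097) or 3 (0.093) and in the 3 limma fits (0.0501 to 0.191). That of SNHG20 was lost without SCC replicate 3 (0.085) or any 1 RCC replicate (0.121 to 0.148), and in the unfiltered limma fit (0.475).

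Genes that span an annotated snoRNA on their strand were also taken by coordinates. Of 28 ribosomal protein genes that do so, all were tested and edgeR called 0 in either direction. Without adjustment 8 had a p under 0.05, all lower, against 8.27% of tested genes that were lower. In 12 of the 28 all SCC libraries were below all RCC libraries, against 13.4% of tested genes. The reverse held in 1, against 14.4%, and the median was -0.11. DESeq2 called 1 of the 28 lower, against 0.766% of the genes it tested. Of 199 tested other protein-coding hosts 1 was called lower, the RNA-binding protein gene KHDC4 (-0.37, SE 0.081, adjusted p = 0.046; called in 10 of 17 alternative fits), with a median of -0.03. Of 32 tested noncoding genes spanning a snoRNA, 2 were lower, again SNHG4 and SNHG20, and 1 was higher, AC007952.4 (2.10, SE 0.44, adjusted p = 0.037; called in 11 of 16). AC007952.4 spans SNORD3D, a U3 gene with near-identical copies, so its counts are uncertain. Of all tested genes edgeR called 0.378% lower and 1.69% higher. The noncoding hosts had a median of -0.20, and no test of the difference between these classes of host was made.

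Proteins that bind or assemble snoRNAs were described from a list of 20 genes, including fibrillarin, dyskerin and the NOP56 and NOP58 proteins. None was called by edgeR in either direction, 17 of 20 were below 0, and the median was -0.08. Without adjustment 3 had a p under 0.05, all lower, against 8.27% of tested genes that were lower. In 8 of the 20 all SCC libraries were below all RCC libraries, against 13.4% of tested genes, and 0 of 20 had the reverse, against 14.4%. Regulators of TOP mRNAs were a list of 17, among them mTOR subunits and LARP1. Of these 0 were higher, against 1.69% of tested genes, and 1 was lower, against 0.378%. This was LARP4, a poly(A)-binding La-related protein, with 103, 112 and 116 CPM in SCC and 149, 144 and 145 CPM in RCC (-0.41, SE 0.068, adjusted p = 0.012). The call of LARP4 was lost without any 1 RCC replicate (adjusted p = 0.076 to 0.107) and in the unfiltered limma fit (0.120).

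Spliced GAS5 and other host RNAs are known substrates of nonsense-mediated decay, so factors and targets of that pathway were listed too. Of 20 decay factors, 0 were called by edgeR in either direction, and the median was -0.01. Without adjustment 4 had a p under 0.05, all lower, against 8.27% of tested genes that were lower. Of 17 mRNAs known as decay targets, 7 were higher in SCC and 0 lower, against 1.69% and 0.378% of all tested genes. Their median was 0.30. The largest differences were in PPP1R15A, the stress-induced phosphatase subunit GADD34, at 1.31 (SE 0.083, adjusted p = 1.1e-05), and GADD45A, a growth arrest and DNA damage gene, at 1.02 (SE 0.099, adjusted p = 0.0003). GADD45B at 0.95 and the cell cycle inhibitor CDKN1A at 0.69 were next. These 4 were called in all 17 alternative fits. ATF4, GABARAPL1 and UPP1 made up the 7, are named because the count is small, and were called in 5, 14 and 13 of the 17. The 7 also include genes of stress responses and growth arrest, and since the list was chosen with results of these libraries known, its direction is not independent evidence.

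**Figure D5:**
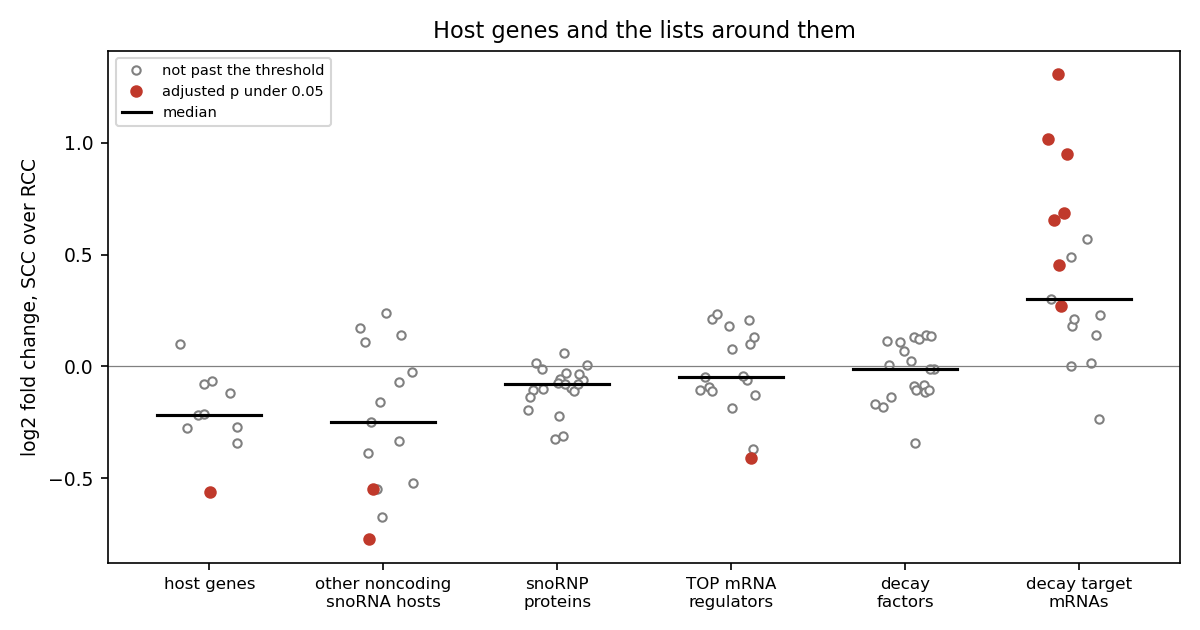
Fitted log2 fold changes of SCC over RCC (vertical axis) for the tested genes of 6 lists, with the 10 host genes at the left. Each circle is a gene, filled where the adjusted p was under 0.05, and bars are medians, which run from -0.25 in other noncoding snoRNA hosts to 0.30 in decay target mRNAs.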

How the data were processed

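RNA-seq libraries of 3 SCC and 3 RCC samples were analysed. The deposited values were counts and FPKM per gene. Per the submitters' processing notes HISAT2 2.0.5 and featureCounts 1.5.0-p3 were used, while build, annotation and use of strand were not given in the sources used here. All 58735 rows matched GENCODE 29 (GRCh38) in ID, position and exon length, and 27 names turned into dates were restored by ID. In the authors' FPKM columns each value equalled the count over gene length and 1 constant per library, 0.983 to 1.02 times its total.

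Counts were filtered (filterByExpr, minimum count 10), scaled by TMM and tested with edgeR 4.0.16 in R 4.3.3 (quasi-likelihood, group only, two-sided, Benjamini-Hochberg over all tested genes, threshold 0.05). SE is the log2 fold change over the square root of F. CPM used TMM-scaled totals. Alternatives were DESeq2 1.42.0, RLE and upper-quartile scaling, other filters, limma 3.58.1 with trend on log2(FPKM + 1) or log2(FPKM + 0.1) (minimum FPKM 1 in 3 libraries, or unfiltered; fold changes on that scale), a GC offset (lowess, span 0.3, GC of the longest GENCODE transcript), a replicate block, and each library left out. The edgeR step was tested on simulated data. At changes of 1.25-, 1.5-, 2- and 4-fold it recovered 3, 28, 35 and 48 of 50 genes, with 12 false calls. A gene that did not pass the test is thus not shown to be unchanged. SnoRNA sequences were aligned with Biopython 1.88.

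The members, lists and tests were chosen with earlier results of these data known. Named genes were the 10 members, overlapping genes, tested small RNAs within members, up to 4 called genes per list by smallest p, and the 5 genes most correlated with GAS5. Wilson intervals cover counting error only.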

Additional observations from a re-analysis of the deposited data

How the results depend on the processing

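SNHG3 kept its direction and its call in all 17 alternatives, from -0.59 to -0.53 without each library in turn. The median over the 10 host genes ran from -0.32 to -0.12, and the difference in their share of counts from -0.0278 to -0.0133 percentage points, when each library was left out. Members called lower numbered 4 with genes of at least 1 count, 3 with the GC offset and 5 with the GC offset and replicate block, and 1 to 2 with a library left out. Of all tested genes these fits called 0.838%, 1.54% and 2.71% lower, and 0.0491% to 2.1% with a library left out. The reported fit called 0.378% lower. SNORA73B was -1.02 and not called in the unfiltered limma fit, which called 0 small RNAs, and ran from -1.19 to -0.91 (0 to 1 small RNA called) without each library. Its ratio to SNHG3 ran from -2.31 to -1.28 percentage points.

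The labels do not say whether replicate numbers pair the samples. Deviations of same-numbered SCC and RCC libraries correlated at -0.0091, 0.025 and -0.079, and those of the other pairs at -0.090 to 0.092. These values cannot settle whether the libraries were paired. The replicate block raised genes called lower from 60 to 106, ribosomal protein hosts from 0 to 4 and TOP mRNA regulators from 1 to 2, left SNHG3 at -0.56 and called no other member. Genes called lower numbered 120 (DESeq2), 315 (at least 1 count), 36, 34 and 1 (limma on FPKM + 1, on FPKM + 0.1, and unfiltered), 244 (GC offset) and 430 (with block), and 8 to 343 with a library left out. Genes called higher, 268 in the reported fit, numbered 995, 130, 117, 48, 523 and 621 in the same fits from at least 1 count on, and 99 to 642 with a library left out.

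Other noncoding hosts called lower were 0 in each limma fit and 4 with the GC offset and block, with 1 called higher under either GC offset. Library omission gave 0 to 3 lower. Noncoding genes spanning a snoRNA gave 0 lower in each limma fit and 4 with the GC offset and block, 0 higher with at least 10 counts everywhere, on FPKM + 0.1 and unfiltered, and 0 to 4 lower and 0 to 1 higher with a library left out. Other coding hosts gave 2 lower (DESeq2), 4 (at least 1 count), 0 (each limma fit), 4 and 5 (GC offset, with block), and 4, 3 and 5 higher (at least 1 count, GC offset, with block), with 0 to 7 lower and 0 to 4 higher on library omission. Ribosomal protein hosts gave 1 lower (DESeq2), 6 (at least 1 count), 1 and 10 (GC offset, with block), and 0 to 4. SnoRNP proteins gave 1 lower (at least 1 count), 2 and 2 (GC offset, with block), and 0 to 1. TOP mRNA regulators gave 2 lower (DESeq2, at least 1 count, both GC fits), 0 (unfiltered limma) and 0 to 2. Decay targets gave 4 higher (unfiltered limma), 1 lower (GC offset with block) and 4 to 11 higher with a library left out, and decay factors 0 to 1 lower. These fits also differ in their libraries or in the number of tested genes, and why the counts changed was not tested. No direction reversed for a called gene.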
